A study of Mus musculus with 14 samples.

Results

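Ribosome-bound RNA pulled down from tagged cells (translating ribosome affinity purification, TRAP) was compared with the input RNA of the same retinae in young mice. The mice carried Aldhl1l-Cre/Ert2+; NuTRAP+, as the labels spell the genotype, and the Cre had been induced with tamoxifen. The comparison used the 6 libraries of animals 1382, 1383 and 1386, aged 4 months, out of 14 samples in the series. Each animal gave a TRAP library and an input library, and the libraries were paired by animal number. Old mice of 24 months with the same genotype and induction entered where young and old were set against each other, with paired values for animals 214, 215 and 523. For each sample 2 retinae were pooled, and the input was a portion of the cleared lysate kept aside before the anti-GFP antibody was added. Values were deposited for 14384 genes in both fractions, and animal 1386 is shown apart because its Müller glia difference was low.

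In this model the Cre is under the control of the Aldh1l1 promoter, which is active in astrocytes and Müller glia, the radial glia that span the retina. Cre recombination switches on a GFP-tagged ribosomal protein, so the antibody brings down RNA bound to ribosomes of recombined cells. Müller glia clear glutamate, buffer potassium and recycle visual pigment, mainly for cones. The retinal pigment epithelium (RPE) is the pigmented cell layer behind the photoreceptors, which regenerates the chromophore of the visual pigments. No source used here states which cells recombined in these mice, and the input holds RNA of every retinal cell type. In bulk RNA a smaller number of cells of a type and less RNA per cell cannot be told apart.

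Every level is on the log2 scale, with a baseline of its own per gene. A difference is the TRAP level minus the input level of the same animal, relative to the median gene of that animal. The baseline of a gene was taken to be the same in both fractions, which no source used here states. Centring on the median gene would not remove an offset per gene between fractions. For 6 genes the lowest level was the same number in libraries of both fractions. Genes were called in limma on the 3 paired differences, at a Benjamini-Hochberg adjusted p under 0.05 over all 14384 genes, two-sided. The deposited values hold no counts, and the sequencing depth is unknown.

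Animals 1382 and 1383 had much the same profile, and 1386 stood apart. The correlation of the differences over 14384 genes was 0.828 between 1382 and 1383, 0.535 between 1382 and 1386, and 0.407 between 1383 and 1386 (Pearson). These are correlations across genes, which are not independent replicates. The SD of the differences was 0.963 and 0.991 in 1382 and 1383 and 0.652 in 1386, and 23.4%, 23.2% and 9.6% of genes lay beyond 1 in either direction. Xist, the X-inactivation transcript, stood at -6.27 in TRAP and -7.22 in input of 1386, and the Y-linked Ddx3y at 7.37 in TRAP and 7.33 in input. In TRAP and input of the other 2 young animals, Xist lay between -0.19 and 1.29 and Ddx3y between -0.56 and 0.38. The part of sex, and that of read depth, in the profile of 1386 was not tested.

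With 3 animals, 90 genes were higher (0.626%) and 34 lower (0.236%) in TRAP than in input. Without animal 1386 the counts were 2955 (20.5%) and 2173 (15.1%), and they included all of the 90 and all of the 34. With 3 animals 4815 of the 14384 genes had an unadjusted p under 0.05 in limma. Differences were above 0 in all 3 animals for 27.9% of genes and below 0 in all 3 for 29%. They were over 1 in all 3 animals for 2.13% and under -1 in all 3 for 0.98%. Counts of list members are to be read against these shares, also where a share is not repeated. Members and lists were chosen with earlier results of these data known, so the counts are descriptions. Animal 1386 was set apart for its low Müller glia difference, so values without it are a description: leaving it out favours the genes that are nearer to 0 in 1386, and the counts without it are no test of them.

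**Figure D1:**
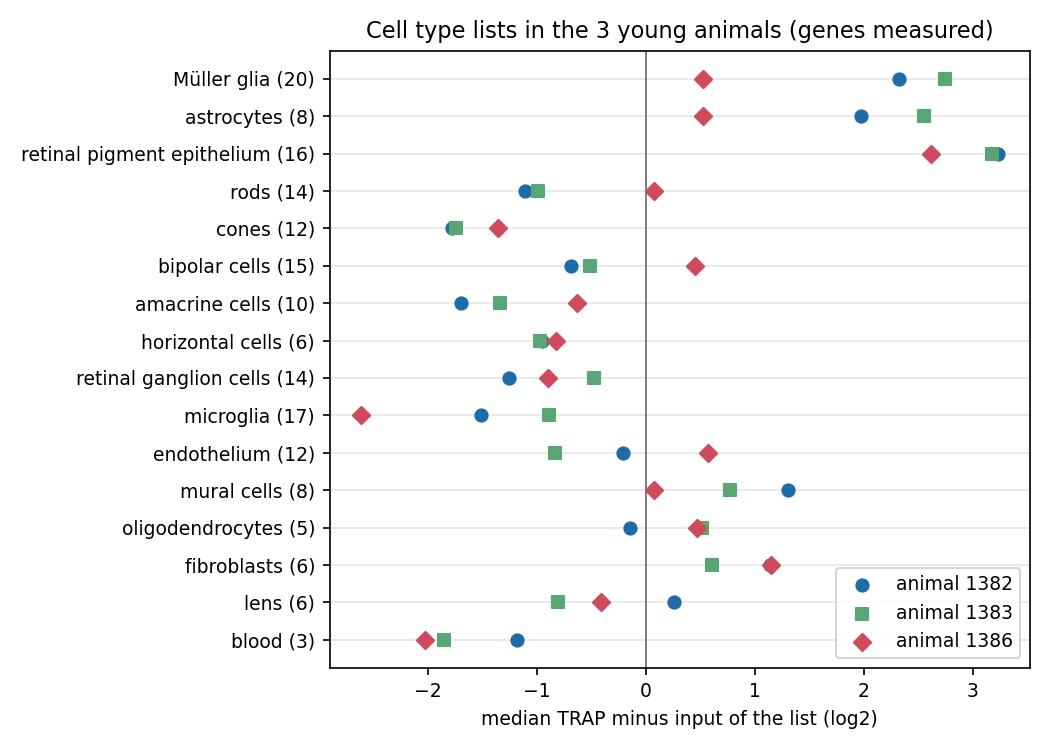
Median TRAP minus input difference (log2) of 16 cell type lists, 1 point per young animal, with the number of genes measured beside each name. The RPE list lies above 2.6 in every animal, while the Müller glia list is at 2.32 and 2.75 in 1382 and 1383 and at 0.53 in 1386.

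Müller glia genes were on the TRAP side in every young animal, but by far less in 1386. Of 20 listed genes all 20 were measured, and all 20 had differences above 0 in all 3 animals. The list median was 2.32 in 1382, 2.75 in 1383 and 0.53 in 1386. With 3 animals 0 of the 20 were called in limma, although 19 had an unadjusted p under 0.05. Without 1386, 19 of the 20 were past the threshold, a count that the choice of this animal favours. Lists share members: Glul, Slc1a3, Aqp4, Kcnj10, Car14 and Slc38a3 also stand among the genes of glutamate, potassium, pH and water handling.

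Rlbp1 (gene 19771, chromosome 7 from 79374870 to 79387027, mm10) encodes a carrier of retinaldehyde made in Müller glia and in RPE. Its level was 2.41, 2.73 and 0.64 in TRAP of 1382, 1383 and 1386, against -0.04, -0.13 and 0.10 in input of the same animals. TRAP and input did not overlap, yet TRAP of 1386 lay much nearer to input than TRAP of the other 2 animals. The mean difference was 1.95 ± 0.50 (limma SE, n = 3 animals, limma adjusted p = 0.0891), and it was 2.67 without 1386.

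The other genes of the list followed the same order. Glul, the glutamine synthetase that turns glutamate into glutamine, stood at 2.20, 2.56 and 0.50 in TRAP of 1382, 1383 and 1386, against 0.02, 0.03 and 0.03 in input. Aldh1l1, the folate enzyme gene that lends its promoter to the Cre, stood at 2.63, 3.17 and 0.72 in TRAP, against -0.13, -0.01 and -0.21 in input. Its difference was 2.29 ± 0.48 (SE, limma adjusted p = 0.0779). The gene behind the driver thus had a positive difference in each animal, of 2.76, 3.19 and 0.91.

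The glutamate transporter Slc1a3 had differences of 2.38, 2.80 and 0.48, and the potassium channel Kcnj10 of 2.34, 2.94 and 0.55. The transcription factor genes Sox2, Sox9 and Lhx2, which keep glial and progenitor identity, had mean differences of 1.85, 1.42 and 2.04. Dapl1 was the member with a difference over 1 in all 3 animals, at 2.78, 2.85 and 1.13. The member at the low end was Slc38a3, an amino acid transporter that handles glutamine, at 0.40, 0.58 and 0.17.

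Astrocyte genes showed the same split between animals. Of 10 listed genes 8 were measured, 0 were called with 3 animals in limma (5 had an unadjusted p under 0.05), and all 8 were higher without 1386. The list medians were 1.97, 2.55 and 0.53 in 1382, 1383 and 1386. Gfap, a filament protein gene that astrocytes use and that Müller glia raise under stress, had differences of 2.77, 2.82 and 0.58. Pax2, a transcription factor of astrocytes of the retina and optic nerve, had differences of 1.71, 2.89 and 0.84. Gja1, the gap junction gene, stood at 3.65, 2.87 and 1.19. S100b, Pdgfra and Aldoc lay below 0 in 1386, at -0.42, -0.51 and -0.25.

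**Figure D2:**
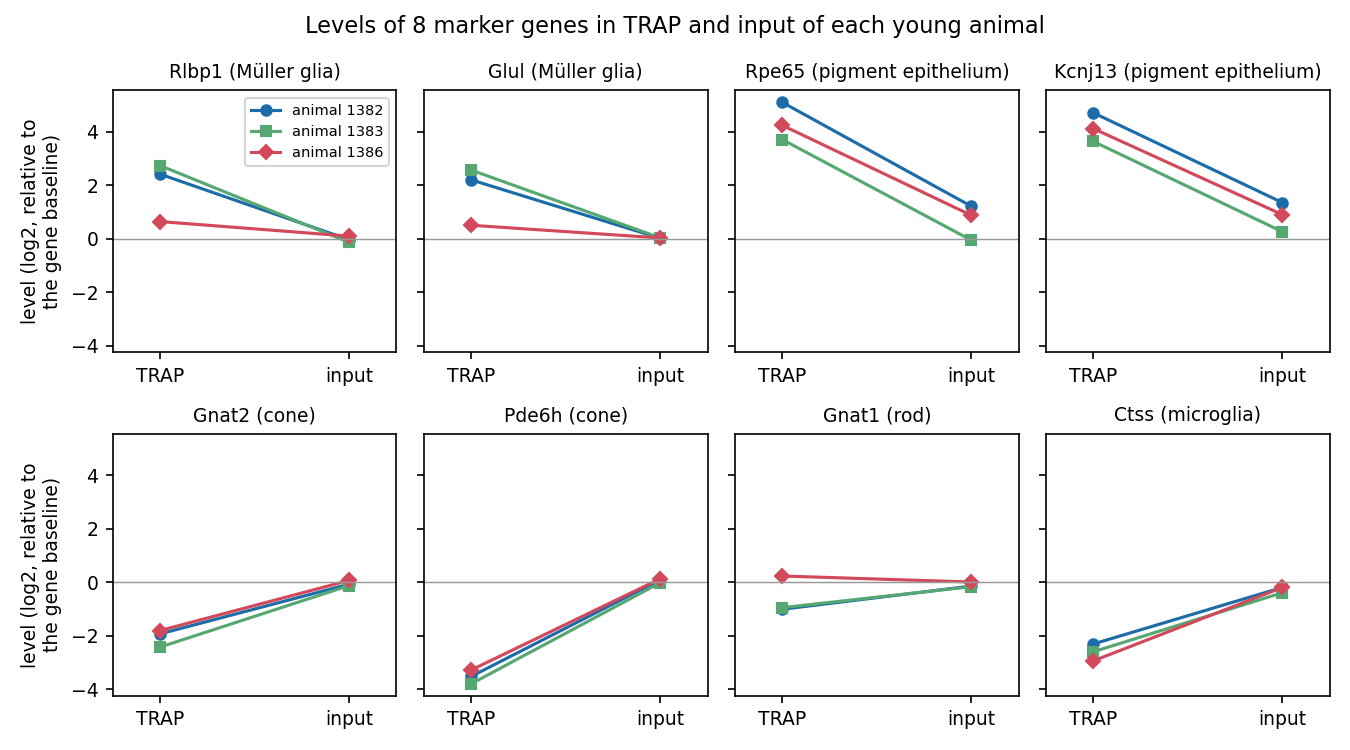
Levels (log2, relative to the baseline of each gene) of 8 marker genes in TRAP and input, joined by animal. TRAP of 1386 lies near input for Rlbp1 and Glul (0.64 and 0.50), and apart from it in the direction of the other animals for Rpe65, Kcnj13, Gnat2, Pde6h and Ctss.

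Most RPE genes were on the TRAP side in every animal, 1386 included. Of 17 listed genes 16 were measured, and 14 had differences above 0 in all 3 animals. Of these, 12 were over 1 in all 3, where the share over all genes was 2.13%. With 3 animals 9 of the 16 were called higher, and 14 were higher without 1386. The list medians were 3.23, 3.17 and 2.61 in 1382, 1383 and 1386, so the difference in 1386 was close to that of the other animals.

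Rpe65 (chromosome 3 from 159599181 to 159625307, mm10) encodes the isomerase that regenerates the visual chromophore. Its level was 5.09, 3.71 and 4.24 in TRAP of 1382, 1383 and 1386, against 1.21, -0.06 and 0.88 in input. TRAP exceeded every input value, and animal 1383 was the lowest in both fractions. The difference was 3.67 ± 0.18 (SE, n = 3, limma adjusted p = 0.0230). Kcnj13, a potassium channel of the RPE apical membrane, stood at 4.70, 3.63 and 4.11 in TRAP, against 1.35, 0.26 and 0.90 in input. Its difference was 3.31 ± 0.15 with the same limma adjusted p.

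Other RPE genes called higher take part in the visual cycle or in transport. Rdh5 encodes a retinol dehydrogenase and Rgr a retinal-binding opsin of RPE and Müller glia, and their differences were 3.58 ± 0.20 and 3.45 ± 0.22 (SE, limma adjusted p = 0.0230 for each). Lrat, which esterifies retinol, differed by 3.21 ± 0.23 (limma adjusted p = 0.0270). Stra6, the receptor that takes up retinol, and Slc16a8, a lactate transporter, differed by 2.94 ± 0.19 and 2.91 ± 0.19. Ttr, the carrier of thyroxine and of the retinol-binding protein, differed by 3.68 ± 0.17, and the amino acid transporter Slc6a20a by 3.03 ± 0.18.

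Not all listed RPE genes did the same. Mitf, the transcription factor of pigment cells, had differences of -0.15, 0.28 and -0.13. Mitf is transcribed from several promoters in several cell types. Best1, a chloride channel, had differences of 0.52, 0.03 and 0.88. Cldn19, a claudin of RPE tight junctions, differed by 3.21 and 3.14 in 1382 and 1383 and by -0.40 in 1386. The pigment genes Tyr and Pmel had positive differences in each animal, of 2.75, 1.42 and 2.20 for Tyr and of 2.77, 2.23 and 1.53 for Pmel, and limma adjusted p-values of 0.0627 and 0.0603.

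RPE genes differed in level between animals before the pull-down. The median level of the RPE list in input was 0.92 in 1382, -0.05 in 1383 and 0.38 in 1386, and in TRAP it was 4.45, 3.06 and 2.98. The Müller glia list in input lay between 0.01 and 0.06. How much RPE stayed with the retina in each dissection is not given in the labels, and its part in the RPE difference was not tested.

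Upstream sequences were read for genes of these lists. RefSeq windows (build GRCm38.p6) were matched for 13 of 16 RPE genes, 13 of 20 Müller glia genes, 9 of 12 cone genes and 11365 of the genes in both tables. Each window here is the 250 bases before the annotated start. TAATCC and its other-strand form GGATTA are the core letters bound by the OTX and CRX homeodomain factors, which act in RPE and photoreceptors. These letters were in 590 of 11365 windows (5.19%), in 3 of 13 RPE windows, 2 of 13 Müller glia windows, 2 of 9 cone windows and 4 of 9 rod windows. CATGTG, or CACATG on the other strand, is an E-box form that the MITF family binds, and it was in 819 of 11365 windows (7.21%), 3 of 13 RPE windows, 1 of 13 Müller glia windows, 0 of 9 cone windows, 3 of 9 rod windows and 3 of 11 microglia windows. TAATCC or GGATTA was in 0 of 11 microglia windows. The share with the E-box form was thus higher in rod (33.3%) and microglia (27.3%) windows than in RPE windows (23.1%). The motifs do not overlap each other. A match describes the letters in the window and not a site in use.

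Shown here are 2 RPE genes called higher, a Müller glia gene whose difference was low in 1386, and a cone gene called lower, since these are the patterns the differences separate. Every window shown holds a motif, so they are not typical of their lists. TAATCC or GGATTA was in 3 of 13 RPE and 2 of 9 cone windows. The E-box form was in 1 of 13 Müller glia windows, that of Rlbp1. Capitals mark both motifs in every window: GGATTA or TAATCC in Rpe65, Rgr and Gnat2, and CACATG in Rpe65 and Rlbp1. All are written 5′ to 3′ on the strand of the gene: Rpe65 chr3:159598931-159599180 plus strand, Rgr chr14:37049015-37049264 minus strand, Rlbp1 chr7:79387028-79387277 minus strand and Gnat2 chr3:108092816-108093065 plus strand.
Rpe65: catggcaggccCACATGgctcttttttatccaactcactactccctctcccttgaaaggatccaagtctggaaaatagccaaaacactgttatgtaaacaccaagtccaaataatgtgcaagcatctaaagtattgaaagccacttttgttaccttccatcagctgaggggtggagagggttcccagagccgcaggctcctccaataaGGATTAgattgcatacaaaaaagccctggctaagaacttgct
Rgr: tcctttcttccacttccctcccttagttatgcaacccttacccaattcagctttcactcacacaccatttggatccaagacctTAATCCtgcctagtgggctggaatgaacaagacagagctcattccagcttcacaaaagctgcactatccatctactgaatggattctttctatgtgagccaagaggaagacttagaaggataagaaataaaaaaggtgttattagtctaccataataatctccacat
Rlbp1: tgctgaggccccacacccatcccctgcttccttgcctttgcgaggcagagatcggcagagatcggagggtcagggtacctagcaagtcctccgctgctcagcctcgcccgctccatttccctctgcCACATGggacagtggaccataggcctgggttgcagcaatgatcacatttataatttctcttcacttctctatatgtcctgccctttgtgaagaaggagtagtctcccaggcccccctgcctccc
Gnat2: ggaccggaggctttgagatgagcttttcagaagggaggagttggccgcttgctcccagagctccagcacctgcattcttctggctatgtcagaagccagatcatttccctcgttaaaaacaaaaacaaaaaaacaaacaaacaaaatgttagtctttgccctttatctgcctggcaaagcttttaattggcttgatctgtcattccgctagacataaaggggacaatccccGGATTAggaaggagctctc

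Among genes called higher, with predicted genes, Riken clones and pseudogenes left out, the 3 largest mean differences belonged to epithelial structural genes. Cgn (chromosome 3 from 94760070 to 94786515, mm10) encodes cingulin, a scaffold of tight junctions. It stood at 5.17, 3.94 and 5.20 in TRAP of 1382, 1383 and 1386, against 0.19, 0.01 and 0.17 in input. TRAP of 1386 was as high as that of 1382, and 1383 was the lowest. The difference was 4.64 ± 0.28 (SE, n = 3, limma adjusted p = 0.0230). Its relative Cgnl1 differed by 4.48 ± 0.24, and the keratin Krt8 by 4.03 ± 0.25.

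Among 18 measured genes of epithelial junctions and keratins, Cgn, Cgnl1, Krt8 and Cldn1 were called higher and 0 lower with 3 animals. The list was chosen with earlier results of these data known, so this count is a description. Without 1386, 11 were higher and Marveld3 was lower. Cldn1, a claudin, stood at 4.36, 3.10 and 3.31 in TRAP, against 1.16, 0.22 and 0.36 in input. Krt18, the usual partner of Krt8, had differences of 0.25, -0.57 and -0.02.

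Further genes with large called differences were Oca2, a melanosome transporter (3.74 ± 0.22), Fap, a membrane protease (3.65 ± 0.21), Col8a2, a basement membrane collagen (3.62 ± 0.26), Car12, a carbonic anhydrase (3.44 ± 0.29), and Rai1, a chromatin regulator (3.37 ± 0.30). The Oca2 input levels ranged widely, at 1.61, -0.93 and -0.39 in 1382, 1383 and 1386. Over all 90 genes called higher, the medians of the differences were 2.83 in 1382, 2.70 in 1383 and 2.47 in 1386. That 1386 is close to the others here follows from the test, which passes genes whose animals agree. Of the 90, 21 belonged to a list used here.

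**Figure D3:**
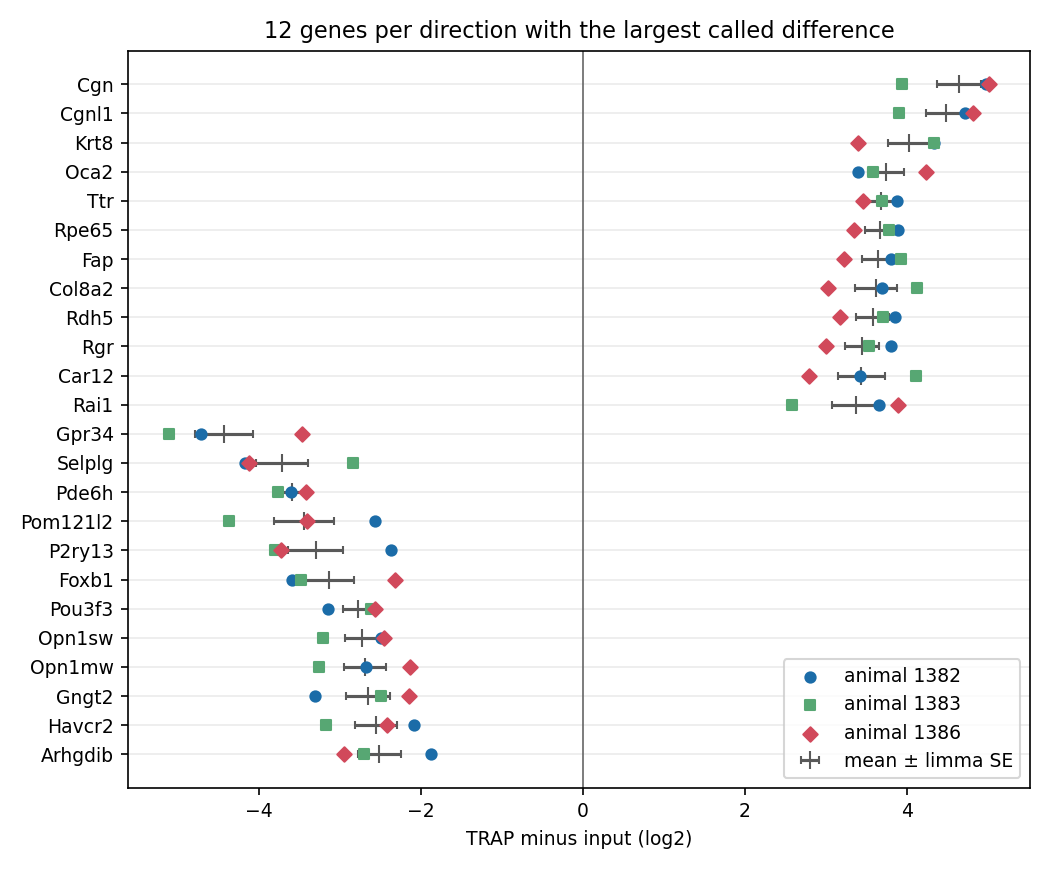
TRAP minus input difference (log2) of the 12 called genes per direction with the largest mean, 1 point per young animal and the mean with its limma SE. Predicted genes, Riken clones and pseudogenes were left out. Genes of epithelial junctions, RPE and pigment lead the higher side, from 3.37 to 4.64, and genes of microglia and cones the lower side, from -2.51 to -4.43.

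Most cone genes were on the input side in all 3 animals, 1386 included. Of 12 measured genes 10 had differences below 0 in all 3 animals, and 7 were under -1 in all 3, where the share over all genes was 0.98%. With 3 animals 6 were called lower, and 10 without 1386. The list medians were -1.78, -1.74 and -1.36 in 1382, 1383 and 1386.

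Pde6h, the inhibitory subunit of the cone phosphodiesterase, stood at -3.52, -3.79 and -3.28 in TRAP of 1382, 1383 and 1386, against 0.09, -0.02 and 0.13 in input. The 3 animals lay within a narrow range in both fractions. The difference was -3.60 ± 0.16 (SE, n = 3, limma adjusted p = 0.0230). The short-wave and middle-wave cone opsin genes Opn1sw and Opn1mw differed by -2.72 ± 0.22 and -2.69 ± 0.26. The cone transducin subunit genes Gnat2 and Gngt2 differed by -2.01 ± 0.17 and -2.65 ± 0.27, and the channel subunit gene Cngb3 by -1.61 ± 0.15. Arr3, the cone arrestin, had differences of 0.11, -1.03 and 0.04, and Ccdc136 of -0.14, -0.03 and 0.30.

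Rod genes were on the input side in 1382 and 1383 and near the median gene in 1386. All 14 were measured, and 0 were called with 3 animals in limma. An unadjusted p under 0.05 was seen for 4 of the 14, no more than the share over all genes (4815 of 14384). Without 1386, 13 were lower. The list medians were -1.11, -0.99 and 0.07. The rod transducin gene Gnat1 had differences of -0.86, -0.77 and 0.21, and the transcription factor gene Nrl of -1.44, -1.13 and -0.16. In 1386, 9 of the 14 rod genes were above 0, against 0 in 1382 and 0 in 1383. Over all genes centring sets this share in each animal, at 7192 of 14384. The cone and rod medians in 1386 were -1.36 and 0.07, and the difference between these lists was not tested.

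Bipolar genes had medians of -0.69, -0.52 and 0.45 in 1382, 1383 and 1386. Of 15 measured, 0 were called with 3 animals in limma, and 8 were lower without 1386. An unadjusted p under 0.05 was seen for 4 of the 15, no more than the share over all genes (4815 of 14384). In 1386, 10 of the 15 were above 0, where centring puts 7192 of 14384 genes above 0. Grm6, the glutamate receptor of ON bipolar cells, had differences of 0.16, -0.11 and 0.72. Trpm1, the channel that receptor closes, was above 0 in all 3, at 0.55, 0.14 and 1.00. Grik1, a receptor of OFF bipolar cells, stood at -1.39, -1.35 and -0.65.

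Amacrine, horizontal and ganglion cell genes were mostly below 0. Of 10 amacrine genes 9 were below 0 in all 3 animals, with medians of -1.70, -1.34 and -0.63, and 8 were lower without 1386. Gad1, which makes the transmitter GABA, had differences of -1.70, -1.45 and -0.79, and the vesicular transporter gene Slc32a1 of -1.83, -1.65 and -0.86. Of 6 horizontal cell genes, 4 were below 0 in all 3 and lower without 1386, with Lhx1 at -2.21, -1.25 and -1.33. All 14 retinal ganglion cell genes were below 0 in all 3 animals, where the share over all genes was 29%, and 9 were lower without 1386. Their medians were -1.26, -0.48 and -0.90, so here 1383 and not 1386 lay nearest to 0. Slc17a6, the vesicular glutamate transporter of ganglion cells, had differences of -1.07, -0.46 and -1.23. With 3 animals 0 genes of these 3 lists were called in limma, and 8 amacrine, 4 horizontal and 12 ganglion cell genes had an unadjusted p under 0.05.

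**Figure D4:**
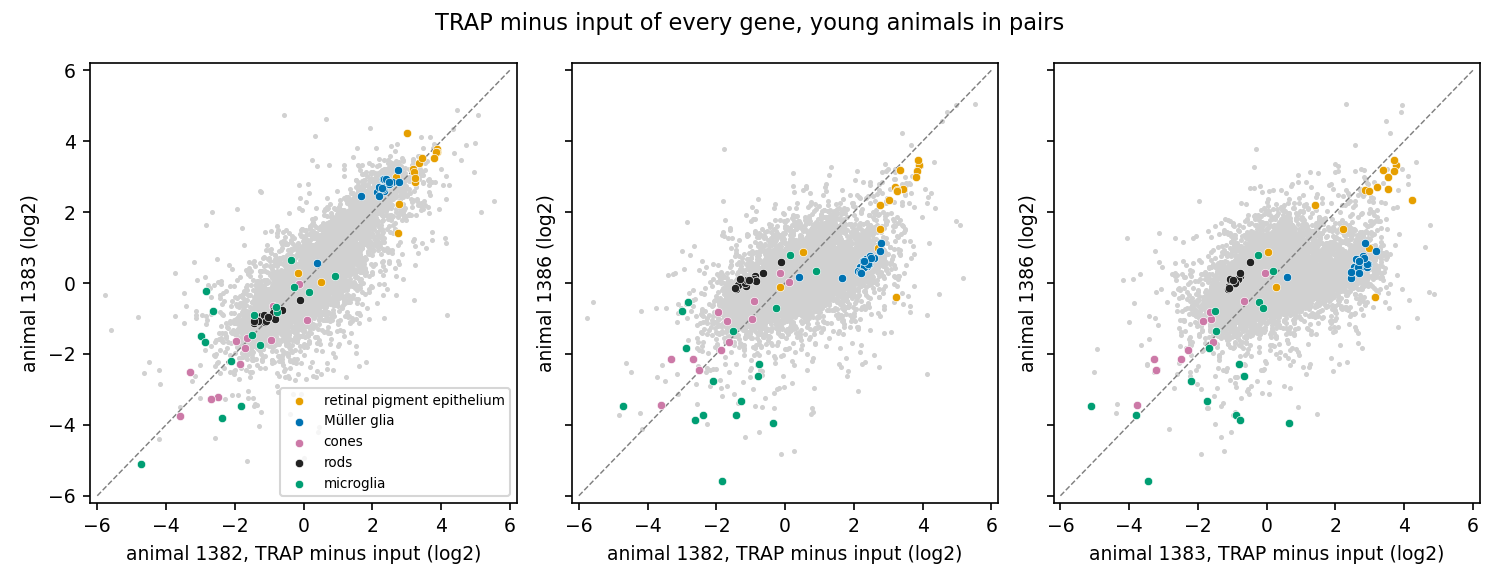
TRAP minus input difference (log2) of 14384 genes in pairs of young animals, with the dashed line of equal differences and 5 cell type lists in colour. Müller glia and rod genes lie near the line for 1382 and 1383, with Müller glia medians of 2.32 and 2.75. On the axis of 1386 they move toward 0, while most RPE and cone genes lie nearer to the line. Exceptions are Cldn19, at 3.21 and 3.14 in 1382 and 1383 and -0.40 in 1386, and Arr3, at 0.11 in 1382 and -1.03 in 1383.

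Most microglia genes were on the input side in all young animals, and the list median was lowest in 1386. All 17 listed genes were measured and 14 were below 0 in all 3 animals. With 3 animals Cx3cr1, P2ry13, Gpr34 and Ctss were called lower, and 12 were lower without 1386. The medians were -1.51, -0.89 and -2.61 in 1382, 1383 and 1386.

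Ctss (chromosome 3 from 95526786 to 95556403, mm10) encodes the lysosomal protease cathepsin S. It stood at -2.30, -2.60 and -2.93 in TRAP, against -0.19, -0.39 and -0.19 in input. The difference was -2.36 ± 0.20 (SE, n = 3, limma adjusted p = 0.0378). Cx3cr1, the fractalkine receptor, differed by -1.44 ± 0.15. The receptor genes Gpr34 and P2ry13 differed by -4.43 and -3.30, but their sizes are uncertain. The TRAP level of Gpr34 was -5.10 in both 1382 and 1383, and that of P2ry13 was -4.06 in both 1383 and 1386. Over young and old libraries of both fractions, 14 genes had the same lowest level, within 1e-06, in 2 or more libraries, and such a shared level can be a floor.

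Members of the microglia list spread widely in 1386. The complement gene C1qa had differences of -1.43, -0.89 and -3.73, Tmem119 of -1.83, -3.46 and -5.59, and Fcrls of -0.36, 0.64 and -3.94. Csf1r, the receptor for colony-stimulating factor, was above 0 in all 3, at 0.91, 0.19 and 0.34. Selplg is a leukocyte ligand for selectins, and blood cells and microglia also use Arhgdib and Havcr2. Selplg, Arhgdib and Havcr2 were among the 12 largest called lower genes that were ranked, at -3.71, -2.51 and -2.56. Foxb1, Pou3f3 and Pom121l2 completed that group, at -3.13, -2.77 and -3.45. Foxb1 and Pou3f3 are transcription factor genes of neurons.

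Vascular and lens lists held genes on both sides, blood genes were all on the input side, and 0 members were called in limma with 3 animals. An unadjusted p under 0.05 was seen for 4 of 12 endothelial, 6 of 8 mural, 3 of 3 blood and 3 of 6 lens genes. Over all genes the share was 4815 of 14384, which the endothelial count did not exceed. The endothelial medians were -0.22, -0.84 and 0.57, where the receptor genes Flt1 and Kdr had differences of 2.22, 2.80 and 0.51 and of 2.14, 2.58 and 0.22, and Cldn5 of -0.87, -1.15 and 0.45. Flt1 and Kdr were higher without 1386, as was Slco1a4, while 4 other endothelial genes were lower. Of mural genes 8 of 12 were measured, with medians of 1.30, 0.77 and 0.07. The 3 blood genes were below 0 in each animal (medians -1.18, -1.85 and -2.03), and the globin copies Hba-a1 and Hba-a2 cannot be told apart with certainty. Only 6 of 16 lens genes were measured. Their median level in input was 2.27 in 1382, -0.37 in 1383 and -0.84 in 1386, and in TRAP 2.58, -0.85 and -2.14. Oligodendrocyte genes (5 of 10 measured) and fibroblast genes (6 of 9 measured) had medians of -0.15, 0.51 and 0.47 and of 1.13, 0.60 and 1.14. The extracellular matrix gene Fbln1 was the highest of the fibroblast list, at 3.47, 3.04 and 1.44.

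Among 14 visual cycle genes, Rpe65, Lrat, Rdh5, Rgr and Stra6 were called higher with 3 animals and 0 lower. Without 1386, 9 were higher, including Rlbp1, and 3 were lower. The members that were lower without 1386 were Rdh12 and Rbp3, which photoreceptors express, and Dhrs3. Rbp3 had differences of -1.30, -1.16 and -0.16.

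Among 15 measured genes for glutamate, potassium, pH and water handling, Slc6a13 was called higher and Kcnj2 lower. Slc6a13, a GABA transporter, stood at 5.41, 4.11 and 2.85 in TRAP of 1382, 1383 and 1386, against 1.80, 1.21 and 0.00 in input, a difference of 3.12 ± 0.22 (SE, limma adjusted p = 0.0269). The inward rectifier channel gene Kcnj2 stood at -1.93, -1.60 and -1.68 in TRAP, against -0.24, 0.10 and -0.18 in input, a difference of -1.63 ± 0.15 (limma adjusted p = 0.0414). Without 1386, 11 of the 15 were higher. Another GABA transporter, Slc6a11, had differences of 1.32, 1.86 and 0.13.

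In serine and glycine synthesis, the serine transporter Slc7a10 (2.57 ± 0.17, limma adjusted p = 0.0230) and Phgdh, the enzyme of the first step (2.41 ± 0.24, limma adjusted p = 0.0444), were called higher among 8 genes. Psat1, the next enzyme, had differences of 2.27, 2.61 and 0.34. Glycogen genes had medians of 0.92, 1.14 and 0.14. Of 12, 0 were called with 3 animals in limma and 9 were higher without 1386, among them the phosphorylase Pygb (1.90, 2.27 and 0.44) and the branching enzyme Gbe1 (1.70, 2.24 and 0.38). Of 17 glycolysis genes 13 were below 0 in all 3 animals, and without 1386 there were 3 higher and 7 lower. The enolase gene Eno1 had differences of 0.92, 1.20 and 0.12, and its neuronal relative Eno2 of -0.98, -0.77 and -0.42. Of 25 oxidative phosphorylation genes 13 were below 0 in all 3, with medians of -0.27, -0.18 and -0.11. Only 1 of the 25 had an unadjusted p under 0.05 in limma, against 4815 of 14384 over all genes.

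Cytosolic ribosomal protein genes lay mostly below the median gene, and 0 were called with 3 animals in limma. Of 46 cytosolic ribosomal protein genes 31 were below 0 in all 3 animals, with medians of -0.25, -0.14 and -0.69. An unadjusted p under 0.05 in limma was seen for 13 of the 46, no more than the share over all genes (4815 of 14384). Rpl10a, which encodes the protein that carries the GFP tag in the NuTRAP allele, was above 0 in all 3, at 2.09, 2.00 and 0.56. Among the 46 it was the 1 member higher without 1386, with a mean of 2.05, while 3 members were lower. With 3 animals its limma adjusted p was 0.0826. Whether reads of the tagged copy count toward Rpl10a is not given in the sources used here.

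Of 20 progenitor and glial transcription factors, 0 were called with 3 animals in limma, and 15 were higher and 1 lower without 1386. Id3 had differences of 2.86, 2.77 and 0.73. The Notch list had medians of 0.39, 0.68 and 0.32 in 1382, 1383 and 1386, so that 1386 lay close to 1382. In that list Lfng, which modifies Notch receptors, stood at 2.50, 2.97 and 0.65, and the receptor gene Notch2 at 2.07, 2.60 and 0.84, and 8 of 18 were higher without 1386. Of 19 Wnt genes 13 were higher without 1386 and 0 were called with 3 animals. Among 25 receptors for growth factors and cytokines 15 were higher and 2 lower without 1386, with Fgfr2 at 3.43, 2.17 and 1.60 and Erbb3 at 2.29, 3.06 and 1.34.

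Among 22 ligands, Bmp4 was called higher. It stood at 3.53, 2.20 and 2.21 in TRAP of 1382, 1383 and 1386, against 0.79, 0.01 and -0.01 in input, a difference of 2.38 ± 0.19 (SE, limma adjusted p = 0.0343). The cytokine genes Lif and Cntf had differences of 4.97, 3.15 and 1.75 and of 3.14, 2.37 and 0.75, and both were higher without 1386.

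Of 17 reactive gliosis genes 13 were above 0 in all 3 animals, and 14 were higher without 1386. Nes, the intermediate filament nestin, and Steap4, a metalloreductase, were called higher with 3 animals. Nes stood at 4.41, 3.47 and 3.93 in TRAP, against 0.58, 0.64 and 0.73 in input, a difference of 3.28 ± 0.24 (SE, limma adjusted p = 0.0270). Steap4 differed by 2.07 ± 0.21 (limma adjusted p = 0.0444). Cd44, a hyaluronan receptor of Müller glia, had differences of 2.33, 2.97 and 0.78. Among complement genes, C1qa, C1qb and C1qc, which microglia make, had mean differences of -2.02, -2.42 and -2.11. Of 21 interferon response and class I genes 15 were higher without 1386 and 0 were called with 3 animals in limma. C4b and the class I genes have close paralogs, so reads may be split among copies.

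Nid2, which encodes nidogen, was called higher among 20 basement membrane genes (3.003 ± 0.28, limma adjusted p = 0.0414), and 11 were higher without 1386. Of 15 polarity genes of the outer limiting membrane 5 were higher and Pard6b was lower without 1386, against 20.5% and 15.1% of all genes. Of 25 antioxidant and metallothionein genes 17 were higher without 1386, with the secreted peroxidase Gpx3 at 4.37, 3.67 and 2.12. Of 24 measured synaptic vesicle genes 20 were lower without 1386 and 20 were below 0 in all 3, with Syt1, the calcium sensor of release, at -1.48, -1.14 and -0.59. Of 21 outer segment and channel genes 15 were lower without 1386. Immediate early genes had medians of -0.39, -0.41 and -0.18, and 0 of 14 were called with 3 animals in limma. Lipid transport genes had medians of 0.33, 0.96 and 0.04, and 7 of 15 were higher without 1386. Cholesterol synthesis and mitochondrial ribosomal protein genes had 0 called members with 3 animals in limma, 2 and 1 lower without 1386, and mean differences between -0.62 and 0.34 and between -0.56 and 0.32.

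Long noncoding RNAs were mostly on the input side. Of 18 measured 11 were below 0 in all 3 animals, and without 1386 there were 8 lower and 1 higher. Snhg6 had differences of -2.14, -1.14 and -1.04. Malat1, a nuclear RNA, stood at -0.85, -1.58 and 0.24. Meg3 was on the TRAP side, at 1.10, 0.26 and 1.41.

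The genes for which 1386 was farthest from both other animals are given as a description only, with predicted genes, Riken clones and pseudogenes left out. On the high side the gap to the nearer animal was greatest for Slc22a28, Ceacam20, Ppp1r3g, Meig1, Tmem252, Dll3, Mgl2 and Gucy2g. The Notch ligand Dll3 had differences of -1.55, -2.66 and 1.26. On the low side they were Myo1h, Prrg1, Cd74, Ptges3l, Eda, Il12rb1, Tnfrsf22 and Tmem71. Cd74, the class II invariant chain, stood at 1.84, 1.75 and -3.97 in TRAP of 1382, 1383 and 1386, against 1.09, 0.28 and -0.28 in input. Myo1h stood at 1.96, 2.38 and 2.11 in TRAP, against -2.52, -2.48 and 2.41 in input, so that input of 1386 lay apart and TRAP did not.

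Enrichment in young mice was then set against that in old mice, in limma on the 6 paired animals. No gene passed: 0 were higher and 0 lower in young at an adjusted p under 0.05, the lowest adjusted p was 0.543, and 875 genes (6.08%) had an unadjusted p under 0.05. The Müller glia list had medians of 2.32, 2.75 and 0.53 in young animals, against 2.78, 2.83 and 2.36 in old animals. Young animal 1386, which was set apart for its low Müller glia difference, lay below every old animal. The other 2 young animals lay within or near the old range. The RPE medians were 3.23, 3.17 and 2.61 in young, against 3.50, 3.31 and 3.54 in old animals, and the cone medians -1.78, -1.74 and -1.36 in young, against -2.18, -2.84 and -1.71 in old animals.

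Among the 16 cell type lists, microglia had the largest median difference between ages, -1.83 in young minus old. Their medians were -1.51, -0.89 and -2.61 in young, against 0.63, -0.94 and 0.23 in old animals, and the ranges overlapped through animals 1383 and 215. Of 17 genes 11 had an unadjusted p under 0.05, against 6.08% over all genes, and 0 passed adjustment in limma. Gpr34 averaged -4.43 in young and 0.07 in old animals, and Ctss -2.36 in young and 0.27 in old animals (limma adjusted p = 0.543 for each). TRAP of Gpr34 in young 1382 and 1383 was at a shared lowest level of -5.10, which can be a floor. The headers of the deposited values name a filter on raw values with 100% of samples and 2 conditions. A gene low in young TRAP may have been kept through old TRAP, so the microglia counts between ages are a description. The labels do not say whether young and old animals were prepared together. Besides Gpr34 and Ctss, the ranked genes with the smallest p that were lower in young were Slfn8, Grik3 and Tnfrsf13c. Those higher in young were Dnahc1, Olfm3, Ppl, Adamts15 and Jph1. Limma adjusted p-values of both groups were 0.543 to 0.688, and predicted genes, Riken clones and pseudogenes were left out of the ranking. Ppl, the cornified envelope protein periplakin, averaged 1.41 in young and -0.34 in old animals.

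**Figure D5:**
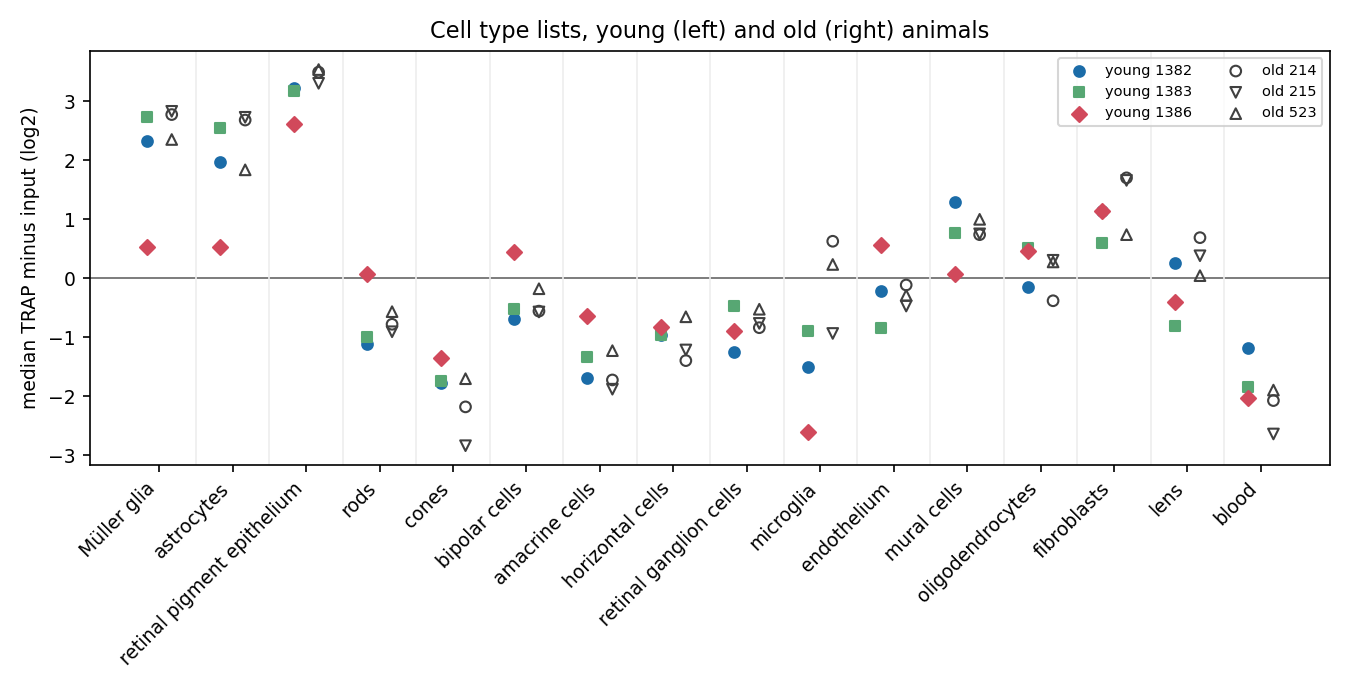
Median TRAP minus input difference (log2) of 16 cell type lists in young animals (coloured, left of each column) and old animals (open, right). Young animal 1386, which was set apart for its low Müller glia difference, stands below the other animals for the Müller glia and astrocyte lists. The microglia medians are lower in young than in most old animals.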

How the data were processed

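Ribosome-bound (TRAP) and input RNA of mouse retina were sequenced. The authors deposited one table per fraction with normalized log2 values relative to a baseline for each gene. The unit was read from the values, since no source used here gives the scaling, log base or baseline. DESeq and mm10 are named in the submitters' processing notes. Per the file headers, both tables belong to the same experiment and share a lower cut-off of 5.0 on raw values. No counts are given, so depth is unknown.

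Tables of 14832 (TRAP) and 14732 (input) genes were joined on gene ID. The paired difference of each animal was centred on its median and tested in limma 3.58.1 (R 4.3.3) with empirical Bayes and Benjamini-Hochberg adjustment. The pairing comes from the animal number in the labels: both fractions were taken from the same lysate. Young and old differences were compared in the same way over 6 animals. The fit was tested on simulated data. Tables were handled in Python 3.11.15 with pandas 2.3.3. Alternatives changed the scaling, variance model, pairing, filter or animals. A further column of 1 animal outside the listed samples was not used, and old animal 521, which has a TRAP library but no input values here, entered no paired fit. Its TRAP library entered the unpaired alternatives over both ages and the count of shared lowest levels.

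Named genes were at most 12 called genes each way by size of the mean, members of 42 lists, at most 8 each way by the gap between animal 1386 and the nearer animal, and at most 5 each way by the p between ages. Members and lists were chosen with earlier results of these data known. Some genes of the lists are counted but not reported by name here.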

Additional observations from a re-analysis of the deposited data

How the results depend on the processing

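Counts of called genes depended on the animals and the variance model. Against 90 higher and 34 lower genes in the paired fit, the fit with no replicate block, that is without the pairing by animal, gave 481 and 576, and an unpaired fit on all libraries of both ages gave 2864 and 2515. Robust empirical Bayes gave 57 and 17, a minimum fold of 1.5 gave 34 and 4, and array weights gave 5286 and 5196. Quantile normalization gave 0 and 0 (2284 genes at an unadjusted p under 0.05 in limma), and a variance trend gave 0 and 0 (5137 genes). Leaving out 1 animal gave 0 to 2955 higher and 0 to 2173 lower genes, with 0 in each direction without 1382 or without 1383 (1804 and 2795 genes at an unadjusted p under 0.05 in limma). Values as deposited gave 90 and 34, and a filter on input values gave 82 and 35.

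Between ages, array weights gave 1286 genes higher and 1132 lower in young, and each other alternative gave 0, also leaving out any 1 animal. In the fit of young animals the array weights were 8.216 for 1382, 0.5403 for 1383 and 0.2253 for 1386, so that its values rest mainly on 1 animal. Signs were compared for 124 genes, taken from the largest called genes and the list members, and not for all genes. Among those, the sign of 3 uncalled genes turned. Arr3 was 0.036 with array weights and lay between -0.498 and 0.072 when 1 animal was left out. Fcrls lay between -2.145 and 0.141 when 1 was left out. Mitf was -0.227 with quantile normalization and -0.126 with array weights, and lay between -0.139 and 0.079 when 1 was left out. Quantile normalization gave list medians of 0.929 for Müller glia and 1.336 for RPE, against 1.881 and 2.99. The cause was not tested.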
